A study of Nicotiana attenuata with 6 samples.

Results

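In flower peduncles of Nicotiana attenuata, 117 of the 248 probes that carry the name of a protein taken to be nuclear-encoded (47.2%) were not detected on any of 6 arrays. A probe counted as detected on an array when the scanner software set its flag for a spot well above background. The 117 were found among 364 probes with a readable entry name, after 103 names of organelle-genome proteins and 13 names of cytosolic ribosomal proteins had been set aside. Of the other named nuclear probes, 115 were detected on all 6 arrays and 16 on 1 to 5 arrays. Over the whole array, 26263 of 59157 probes (44.4%) were detected nowhere. The 117 probes were chosen by the measured detection flag on the same 6 arrays, so their low signal is a description and supports nothing by itself.

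Nicotiana attenuata is a wild tobacco, and the peduncle is the stalk that carries and moves its flower. RNA was hybridized from 3 samples of EV plants, transformed with an empty vector, and 3 of irZTL plants, in which ZEITLUPE (ZTL), an F-box protein of the circadian clock, was silenced by RNA interference. Both genotypes were grown in a glasshouse with 16 h light and 8 h dark per day, and their peduncles were taken at ZT0 on the day the flowers began to move. Each sample was a pool of peduncles, and the comparison named in the study's design is with 1 silenced line, irZTL-314. Whether the pools of a genotype came from different plants is not said in the labels, and the tests therefore measure the spread between pools only. The transcript of ZTL itself was not analysed here.

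An entry name joins a protein and the plant of the matched entry, as in SELFP_SOLLC for tomato SELF-PRUNING. It records a matched protein. Except for the 2 entries from N. attenuata itself, it is not a name given to the gene of this plant. Many of the proteins named here are known from particular organs, stages or stresses: defensins and chitinases from the response to pathogens, MADS-box factors from flower and fruit development, pollen and seed proteins from those organs. A peduncle is a green stem that elongates and bends, and photosynthesis and wall genes are known to be active in such tissue. An array reports hybridized RNA per spot, so a probe below detection may have a low transcript level or may bind its transcript poorly, and in a pooled organ fewer cells of a type and less RNA per cell cannot be told apart.

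Each array detected 29224 to 30175 probes, and the 75th percentile of the processed signal ran from 239 to 327. The lowest net intensity, the spot signal after subtraction of the local background, among detected probes was 14.9 to 17.5 scanner units. A weaker flag marks spots that are positive and significant against background, and it began at 2.97 to 3.49 units. The 308 negative-control spots of each array had median net intensities of -2.29 to -1.75 and 95th percentiles of 2.63 to 3.79. As a check of the tissue label, all 4 named green-tissue probes (CB23_SOLLC, CB23_TOBAC, RBS2_NICSY and RCA_SOLPN) were detected on all 6 arrays. Of the pollen markers, POLC2_TOBAC was detected on all 6 and LAT52_SOLLC on 5, and the stems listed for root alkaloid synthesis and for seed and tuber matched no named nuclear probe. Those stems miss PT2K3_SOLTU, by its entry name a potato tuber patatin, which is described below.

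The 117 probes lay around zero signal. Their mean net intensity over the 6 arrays had a median of -0.258 and ran from -6.32 to 9.76, and the median SD over arrays was 2.85. The mean was at or below 0 for 62 probes. Of the 702 single values, 372 (53.0%) were at or below 0, the lowest being -11.0 and the highest 16.3. Different probes bind with different strength, so these intensities do not rank the transcripts by abundance.

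**Figure D1:**
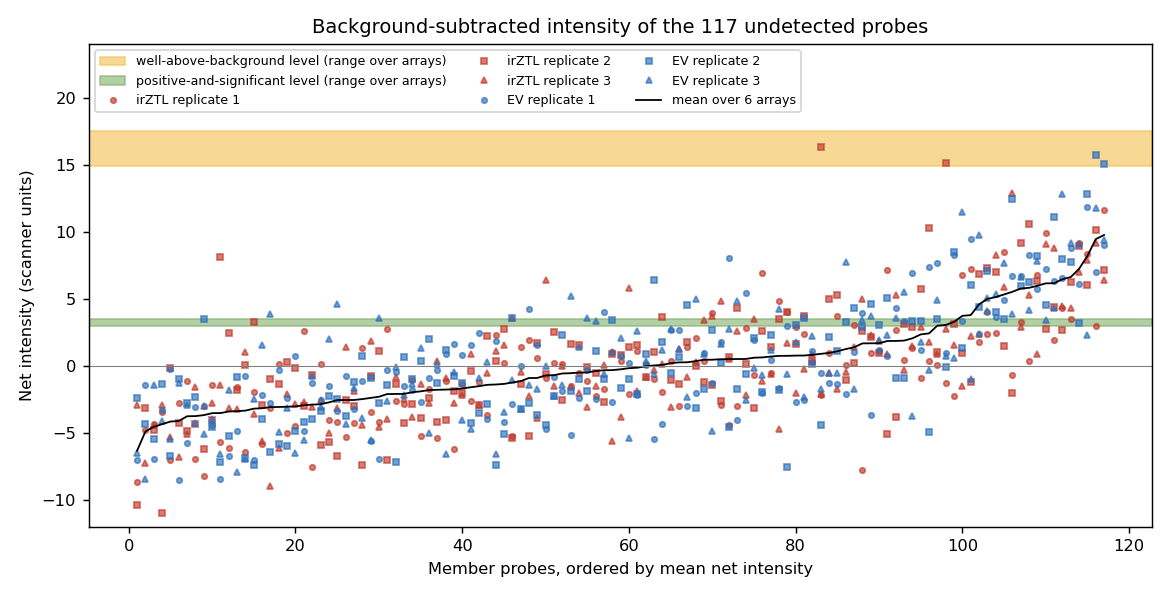
Net intensity in scanner units (vertical axis) of each of the 117 undetected probes on 6 arrays, ordered by the mean over arrays (black line); red marks irZTL, blue EV, and shapes the replicates. The bands span, over arrays, the lowest signal of detected probes (14.9 to 17.5) and the level of the weaker flag (2.97 to 3.49); the line of means runs from -6.32 to 9.76.

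By the weaker flag, 54 of the 117 were positive and significant on no array (46.2%, against 41.8% of all undetected probes). A further 28 were positive on 1 array, 13 on 2, 7 on 3, 2 on 4, 12 on 5 and 1 on all 6. The share positive on at least 5 arrays was 11.1%, against 11.6% of all undetected probes. The share positive on at least 3 arrays was 18.8%, against 24.4%. These shares include the members among all undetected probes, and their difference was not tested. Above the 95th percentile of the negative controls on every array stood 1 member, PRS6B_SOLTU.

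PRS6B_SOLTU (identifier NA13731_22285), named for a regulatory ATPase of the 26S proteasome, the complex that degrades ubiquitin-tagged proteins, was the member positive on all 6 arrays. Its net intensities were 11.6, 7.16 and 6.37 in irZTL and 8.97, 15.01 and 9.41 in EV (8.38 ± 2.83 and 11.1 ± 3.37, mean ± SD, n = 3 each). The groups overlapped. Another probe with the same entry name, NA14013_22237, was detected on all arrays with net intensities of 4162 to 6224.

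The 12 probes positive on 5 arrays held several kinds of protein. U540C_ARATH, with no role given here, had net intensities of 2.95, 10.1 and 9.17 in irZTL and 7.02, 15.7 and 11.8 in EV. PDI51_ARATH, a protein disulfide isomerase that forms disulfide bonds in new proteins, had 8.37, 6.05 and 7.86 in irZTL and 11.8, 12.8 and 2.29 in EV. KS1_ORYSJ, an ent-kaurene synthase of the gibberellin path, had 9.15, 8.91 and 6.97 in irZTL and 6.08, 3.21 and 9.09 in EV. In these 3 the genotypes overlapped, and each had 1 array below the rest, irZTL replicate 1, EV replicate 3 and EV replicate 2 in turn.

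LBD12_ARATH, a LOB-domain transcription factor, had net intensities of 9.91, 2.71 and 9.09 in irZTL and 7.25, 4.53 and 3.41 in EV. ERF5_NICSY, an ethylene-response transcription factor, had 8.49, 1.495 and 5.88 in irZTL and 4.94, 3.47 and 7.67 in EV. CCD32_ARATH, the cell cycle regulator cyclin D3-2, had 0.386, 10.6 and 5.32 in irZTL and 8.25, 6.25 and 4.15 in EV. For each of these, EV values fell inside the irZTL range. FH20_ARATH, a formin of the actin skeleton, had means of 5.90 ± 3.06 in irZTL and 4.35 ± 0.883 in EV. PDC2_MAIZE, a pyruvate decarboxylase of fermentation, had 4.59 ± 2.53 and 5.40 ± 1.55. PT2K3_SOLTU, by its entry name a patatin, the storage protein of potato tubers, had 1.96, 4.42 and 8.79 in irZTL and 6.33, 11.1 and 4.33 in EV. M1280_ARATH, by its name an open reading frame of the mitochondrial genome, had with its probe NA48945_21917 net intensities of 6.75, 6.36 and 0.919 in irZTL and 5.77, 8.22 and 7.81 in EV. The remaining 2 of the 12, SELFP_SOLLC and HSP82_TOBAC, are given with the comparison of genotypes.

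**Figure D2:**
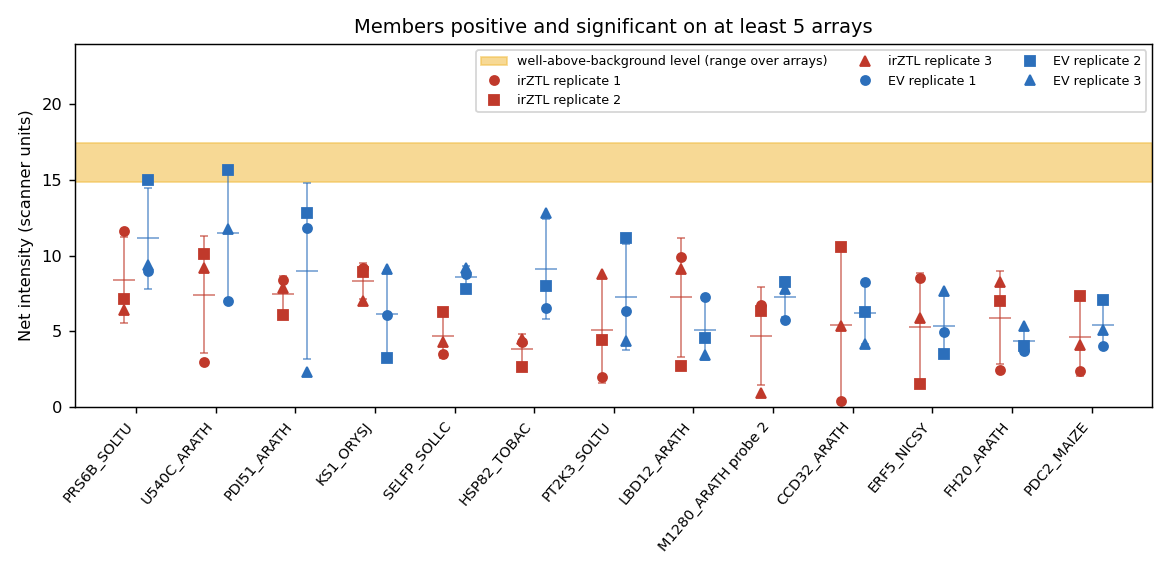
Net intensity in scanner units (vertical axis) of the 13 members positive and significant on at least 5 arrays; points are arrays, and the horizontal and vertical bars are the mean and SD of the 3 arrays of irZTL (red) or EV (blue). Only PRS6B_SOLTU at 15.01 and U540C_ARATH at 15.7 reach the band of the lowest detected signal (14.9 to 17.5), both on EV replicate 2, where that level was 16.7.

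Some members not among the 13 also came close to detection. RF1_ORYSI, named for a fertility restorer of rice that acts on mitochondrial RNA, reached 16.3 on irZTL replicate 2, which was 94.0% of that array's lowest detected signal. Its other values were -2.18 and -2.08 in irZTL and -0.517, -4.43 and -1.73 in EV. R1B12_SOLDE, a homolog of a late blight resistance protein, reached 15.2 on the same array and lay between -1.26 and 2.74 on the other 5. TLP_ACTDE, a thaumatin-like protein of the defence response, had -0.659, -2.01 and 12.9 in irZTL and 6.69, 12.4 and 3.86 in EV, and was positive on 4 arrays. The high values of RF1_ORYSI and R1B12_SOLDE each come from irZTL replicate 2 alone.

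Just outside the rule were 3 probes detected on 1 array. PTR16_ARATH, of the peptide and nitrate transporter family, had net intensities of 5.24, 11.9 and 5.96 in irZTL and 19.3, 7.99 and 8.84 in EV. PER40_ARATH, a peroxidase, had 6.00, 12.1 and 15.5 in irZTL and 1.98, 3.48 and -1.14 in EV. E13G_TOBAC, a beta-glucanase of the defence response, had 0.388, 1.55 and -2.28 in irZTL and 0.00579, 44.7 and -0.847 in EV. PTR16_ARATH was positive and significant on all 6 arrays, PER40_ARATH on 4 and E13G_TOBAC on the 1 that detected it, so the detection of E13G_TOBAC rests on EV replicate 2.

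Sorted by role, the share of undetected probes ran from 1 of 8 in photosynthesis to 8 of 9 among peroxidases and polyphenol oxidases. The roles were assigned after names and values had been seen, and no test was made of these shares. Transcription factors were undetected in 15 of 19 probes, defence and resistance proteins in 11 of 15, cell wall proteins in 6 of 8 and hormone proteins in 5 of 7. Primary metabolism and redox proteins were undetected in 11 of 48, and proteins of chromatin, the cell cycle, RNA and translation in 9 of 28.

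Name lists drawn up without the roles match the start of a protein name. A match that a hand check showed to be another protein, such as PT2K3_SOLTU, was moved to no list. By these lists, undetected probes were 8 of 11 in defence and resistance and 7 of 10 in hormones other than auxin. They were 4 of 6 in pollen, anther and floral genes and 3 of 5 in cell wall genes. They were 2 of 3 cytochromes P450, 2 of 2 kinases and receptors, 2 of 8 transporters, 2 of 7 histone, replication and cell cycle genes, 2 of 8 translation and turnover genes and 1 of 6 chaperones. None of 6 photosynthesis genes, 2 alkaloid genes or 1 proteinase inhibitor was undetected. Undetected probes were also 1 of 4 transcription factors, 1 of 4 phenylpropanoid and flavonoid genes, 1 of 3 terpenoid and sterol genes and 80 of the 161 probes on no list. The transcription factor list is narrower than the role of that name. Factors such as ERF5_NICSY and AGL16_ARATH fall on the hormone and floral lists, and others on no list.

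**Figure D3:**
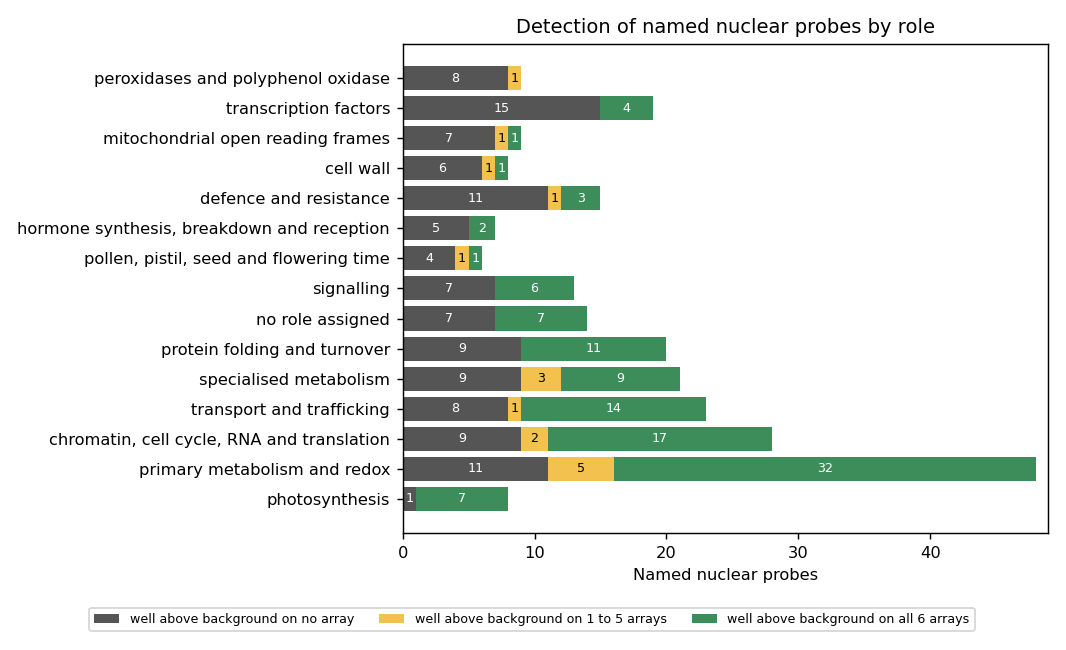
Number of named nuclear probes (horizontal axis) in each role group, split by the number of arrays on which the probe was well above background. Undetected probes make up 8 of 9 peroxidase and polyphenol oxidase probes and 15 of 19 transcription factor probes, but 11 of 48 in primary metabolism and redox and 1 of 8 in photosynthesis.

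The plant of the matched entry went along with detection as well. Of probes matched to Arabidopsis entries, 55 of 72 (76.4%) were undetected, as were 13 of 18 (72.2%) matched to grasses and 18 of 26 (69.2%) matched to plants outside both groups and the Solanaceae. Of probes matched to Nicotiana entries, 17 of 80 (21.3%) were undetected, and of those matched to other Solanaceae, the tobacco family, 14 of 52 (26.9%). Role and plant overlapped: 13 of the 19 transcription factor probes had Arabidopsis entries, and 10 of these 13 were undetected. In primary metabolism and redox, 23 of 48 entries were from Nicotiana, and 2 of these 23 were undetected. The parts of role and of matched plant in the detection were not tested.

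**Figure D4:**
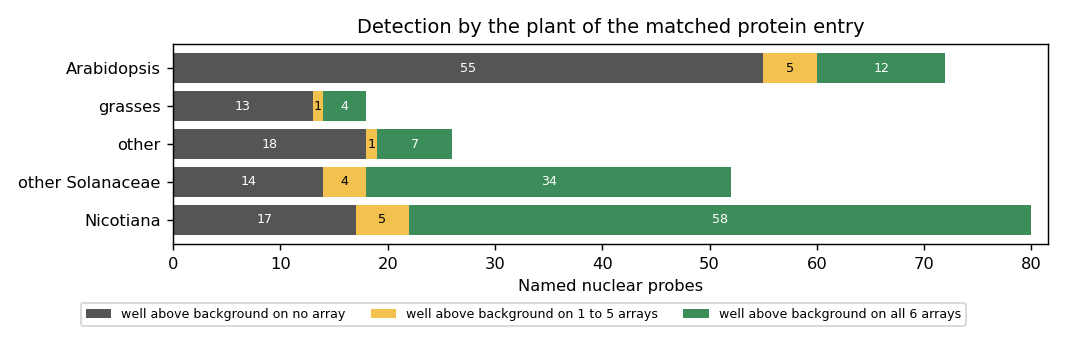
Number of named nuclear probes (horizontal axis) by the plant of the matched protein entry, split by the number of arrays on which the probe was well above background. Undetected probes are 55 of 72 for Arabidopsis entries and 17 of 80 for Nicotiana entries.

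Among the 15 transcription factors, LBD12_ARATH and ERF5_NICSY were positive on 5 arrays and 6 factors were positive on none. Further ethylene-response factors were ERF99_ARATH, with net intensities of -0.934, 5.75 and 2.92 in irZTL and 1.15, 3.35 and 1.81 in EV, and ERF92_ARATH and ERF03_ARATH, positive on 0 and 1 array. The MADS-box factors were AGL16_ARATH, MAD23_ORYSJ, MAD30_ORYSJ and FBP24_PETHY, whose mean net intensities were 1.85, -3.02, -3.75 and -0.324. AGL16_ARATH ranged from -5.12 to 7.12 within the irZTL arrays. The zinc finger proteins ZAT7_ARATH, ZAT12_ARATH and C3H65_ARATH had means of -2.94, -2.89 and -0.709. WER_ARATH, a MYB factor of root epidermal cell fate in Arabidopsis, had a mean of -2.09, and HOX29_ORYSJ, a homeobox factor, of -0.388.

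PIF1_ARATH, a bHLH factor that binds phytochrome and acts in light responses, was the one named nuclear probe that matched a list of clock and light proteins. Its net intensities were 0.0908, -1.02 and -0.487 in irZTL and -2.07, 3.28 and 7.71 in EV. EV replicate 3 alone was positive and significant, and the EV range enclosed all irZTL values. No member matched a list of auxin genes.

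In defence and resistance, R1B14_SOLDE, a second late blight resistance homolog, had net intensities of -2.23, 3.11 and 1.52 in irZTL and 8.26, 8.46 and 0.578 in EV. CHIB_VITVI and CHIT_AVESA, chitinases that cut fungal cell walls, had means of -3.38 and 0.513. The beta-glucanases E13F_TOBAC and GUB_NICPL had means of -2.72 and -0.548. The defensin-like entries DEF02_ARATH, DEF32_ARATH, DEF68_ARATH and DF223_ARATH, small antimicrobial proteins, were positive on no array, with means from -4.89 to -1.35. Of the 11 defence members, 6 were positive on no array and 0 on 5 or more.

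All 4 probes named for the lignin-forming anionic peroxidase of Nicotiana, 2 for PERX_NICSY and 2 for PERX_TOBAC, were undetected, with means of -4.54 to 1.38. Peroxidases of this class couple phenolic units in the wall. PER5_VITVI and PER10_ARATH, from the same enzyme class, had means of 2.05 and -3.53. The 2 probes of PPOA_SOLLC, a polyphenol oxidase that browns wounded tissue, had means of -4.15 and -0.172. None of the 8 was positive on more than 2 arrays.

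The specialised metabolism members included both enzymes that make capsidiol, a defence terpenoid of tobacco, from its farnesyl precursor. 5EAS2_NICAT, a 5-epi-aristolochene synthase and the only member named for this species, had net intensities of -5.28, -2.57 and 1.41 in irZTL and -0.782, -3.74 and -4.32 in EV. The second N. attenuata entry, 5EAS1_NICAT, was detected on 3 arrays, with net intensities of 9.11, 16.7 and 27.7 in irZTL and 4.51, 18.7 and 28.4 in EV. C71DK_TOBAC, the P450 that follows in the path, had -1.16, -0.101 and -3.08 in irZTL and -0.293, -1.89 and 3.58 in EV. Neither member separated the genotypes.

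CHSC_IPOPU, a chalcone synthase at the entry to flavonoids, had a mean of 0.607. F3ST_FLACH, a flavonol sulfotransferase, had 0.458, and DXMT1_COFAR, a caffeine synthase of coffee, 0.455. The 2 probes of BCH2_CAPAN, a beta-carotene hydroxylase, had means of -2.55 and 0.495. The glycosyltransferases U72C1_ARATH and U73C1_ARATH had means of -1.14 and -1.75. Each of these was positive on 0 to 2 arrays.

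Of the hormone members besides KS1_ORYSJ, ABAH4_ARATH, an abscisic acid hydroxylase, had a mean of 1.88 and LOX15_SOLTU, a lipoxygenase, of 0.0311. C7352_ARATH, a cytokinin hydroxylase, had -3.07, and LOG5_ARATH, which releases active cytokinin, -3.05. The signalling members were kinases and their partners: MPK11_ARATH, CDPKO_ARATH, P4KA2_ARATH, the receptor kinase PXL2_ARATH, the calmodulin-like CML29_ORYSJ and 2 probes of the phosphatase PPP7L_ARATH. Of these 7, 5 were positive on no array, and their means ran from -3.19 to 0.694.

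The cell wall members loosen, cross-link or cut wall polymers. EXPA1_ORYSJ, an expansin, and EXTN_DAUCA, an extensin, had means of 0.502 and 0.508. PME62_ARATH, a pectinesterase, had 0.0729, MAN2_SOLLC, a mannanase, -2.09, COBL9_ARATH, a COBRA-like protein, -1.77 and BGL12_ORYSJ, a beta-glucosidase, -0.902. EXPA1_ORYSJ ranged over the EV arrays from -4.56 to 8.05, wider than the gap between genotypes.

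Of the pollen, pistil and seed members, PLRX4_ARATH, a pollen extensin-like protein, had a mean of 0.266 and PEXLP_TOBAC, a pistil extensin-like protein, of -0.907. LE10_HELAN, a late embryogenesis protein of sunflower that no stem for seed markers matched, had 1.69, with all 6 values between 0.986 and 3.05 and none flagged positive.

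Transport and trafficking members included NIP21_ARATH, an aquaporin, at 3.24, 9.13 and 2.92 in irZTL and 6.68, 5.95 and 6.65 in EV. PDR2_NICPL, an ABC transporter, had 7.22, -1.24 and 2.20 in irZTL and 9.48, 6.06 and -1.01 in EV. SWT1A_ORYSJ, a SWEET sugar transporter, had a mean of 0.822, and RAC2B_ARATH of -0.139. NLTP_SPIOL, a lipid transfer protein, and AP2S1_MAIZE, a clathrin adaptor subunit, had the means -4.35 and -6.32, the latter the lowest of all 117.

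In chromatin, RNA and translation, H2A1_ARATH and H2B_PEA, core histones, had means of 0.745 and -1.90. RH21_ORYSJ, an RNA helicase, had 4.59, SYTC_ARATH, a threonyl-tRNA synthetase, 1.67 and SUI1_BRAOL, a translation initiation factor, -3.07. The second probe of ROC5_NICSY, a chloroplast RNA-binding protein, NA63378_22648, had 2.42.

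In protein turnover, UBP18_ARATH, a ubiquitin protease, had a mean of 1.86, UBQ8_ARATH, a polyubiquitin, -1.81, and the ubiquitin ligases ATL31_ARATH and ATL78_ARATH 0.196 and -1.52. FBL77_ARATH, an F-box protein, had 1.68 and CD48C_ARATH, an ATPase that unfolds ubiquitinated proteins, -0.258.

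The primary metabolism members besides PDC2_MAIZE were KCS20_ARATH, of very long chain fatty acid synthesis, PDC2_TOBAC, AMYB_VIGUN, a beta-amylase, CYNS_MEDTR, a cyanate hydratase, UPP_TOBAC, a uracil salvage enzyme, CXXS1_ARATH, a thioredoxin-like protein, CYC_HELAN, cytochrome c, NDUS1_SOLTU, a nuclear-encoded subunit of respiratory complex I, ACEA_SOLLC and MT2_ACTDE. Their means ran from -2.86 to 3.73. KCS20_ARATH, the highest, had 6.80, 0.923 and -1.50 in irZTL and 3.33, 1.36 and 11.5 in EV. TL16_ARATH, a thylakoid lumen protein, was the 1 undetected photosynthesis member, with all values between -0.847 and 0.905.

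For at least 7 members the label does not hold by name: M1280_ARATH with 3 probes, M710_ARATH with 2, M240_ARATH and M810_ARATH are entries for open reading frames of the Arabidopsis mitochondrial genome. The rule's organelle pattern does not catch such names, and 9 probes of the kind were among the 248. Apart from NA48945_21917 their means ran from -4.11 to 0.748. No role is given for the remaining members without one, Y3649_ARATH, RP12B_ARATH, CYSA_CUCSA and the 2 probes of RRPO_OENBE, whose means ran from -3.67 to 1.09. Whether any of these entries, such as RRPO_OENBE, is encoded in an organelle genome was not checked.

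For 5 protein names an undetected probe stood beside a detected probe with a different identifier. Besides PRS6B_SOLTU, ACEA_SOLLC, an isocitrate lyase of the glyoxylate cycle, was undetected with NA48176_21451 and detected on all arrays with NA18652_21452, at net intensities of 17.3 to 22.4. RF1_ORYSI was undetected with NA7746_46764 and detected with NA34384_46786, at 369 to 606. PDR1_TOBAC, an ABC transporter, was undetected with NA13849_22141 and detected with NA9147_22140, at 122 to 326. MT2, a metallothionein, was undetected under its kiwifruit entry MT2_ACTDE and detected under MT2_NICPL, at 4381 to 7386. An undetected probe therefore does not show that every transcript matched to that protein was below detection.

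By irZTL against EV, 0 of the 117 passed limma's test at an adjusted p under 0.05 with over 2-fold change (background 0.44% of all 59157 probes tested, 260 probes). The background was 0.213% for probes higher in irZTL and 0.227% for probes lower. The background count itself fell from 260 to between 0 and 33 with any 1 array left out (0, 16 and 15 without EV replicates 1, 2 and 3, and 9, 2 and 33 without irZTL replicates 1, 2 and 3), and was 3 with the methods' t-test. At an unadjusted p under 0.05 limma gave 3 members, against 10.1% of all probes and 3.48% of undetected probes, and the methods' t-test gave 3. These 3 are near the share among undetected probes. Being undetected in both genotypes, members have no fold given here.

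SELFP_SOLLC (NA75507_22902), named for SELF-PRUNING, a tomato repressor of flowering, had net intensities of 3.46, 6.25 and 4.28 in irZTL and 8.79, 7.77 and 9.16 in EV. All 3 irZTL values lay below all EV values (4.66 ± 1.43 and 8.58 ± 0.718, mean ± SD, n = 3 each). The limma adjusted p was 0.221 and the unadjusted p 0.00718, the smallest of the 117.

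HSP82_TOBAC (NA25959_21844), named for a chaperone of the Hsp90 class, had 4.29, 2.65 and 4.46 in irZTL and 6.55, 7.98 and 12.8 in EV. These groups did not overlap either (3.80 ± 1.00 and 9.12 ± 3.29), and the limma adjusted p was 0.315. R1B14_SOLDE, with values given above and fill-in values on 4 of 6 arrays, had an adjusted p of 0.438 in limma, and its net intensities overlapped (0.800 ± 2.75 and 5.76 ± 4.49). None of the 3 passed the test after adjustment.

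On the log2 scale the groups did not overlap for 4 members, SELFP_SOLLC, HSP82_TOBAC, R1B14_SOLDE and FBL77_ARATH, all lower in irZTL. That is 3.42% of 117, against 15.4% of all probes and 5.32% of undetected probes. By direction, 8.59% of all probes were lower without overlap and 6.78% higher, against 4 and 0 members. For R1B14_SOLDE and FBL77_ARATH all 3 irZTL values and 1 EV value were fill-in values that the scanner software sets for spots not positive and significant. Their separation is therefore not one of measured signal, and the net intensities of both overlapped. In SELFP_SOLLC and HSP82_TOBAC 1 irZTL value each was such a value, and their net intensities did not overlap. The count depended on single arrays, and the share of all probes moved as well. It was 41 without EV replicate 2 (35.0% of members, 33.6% of all probes) and 5 without EV replicate 1 (4.27%, 25.3%). Without irZTL replicates 1, 2 and 3 it was 11 (9.40%, 21.5%), 11 (9.40%, 20.8%) and 8 (6.84%, 27.0%), and without EV replicate 3 it was 7 (5.98%, 20.6%). The members' fill-in values had median log2 levels of -6.23, -6.42 and -6.37 in irZTL and -6.20, -6.57 and -6.23 in EV. EV replicate 2 had the lowest, and without it members with fill-in values alone could count. UBQ8_ARATH, positive on no array, then had -6.16, -6.35 and -6.24 in irZTL against -6.03 and -6.07 in EV. How many of the 41 were of this kind was not counted. Net intensities divided by each array's 75th percentile gave 10 members without overlap (8.55%, against 18% of all probes and 11% of undetected probes), 6 lower and 4 higher in irZTL. The background by direction was 9.72% lower and 8.25% higher. On both scales with all 6 arrays the members' share was below that of all probes, as was that of undetected probes. The rule chose dim probes, so this is no result about the members. Without EV replicate 2 on the log2 scale the members' share was not below that of all probes.

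The 6 lower by that measure were SELFP_SOLLC, HSP82_TOBAC, E13F_TOBAC, MAN2_SOLLC, U73C1_ARATH and ROC5_NICSY with its probe NA12303_22785. The last had net intensities of 0.101, 1.00 and 0.897 in irZTL and 7.65, 3.46 and 4.88 in EV, and was the only member positive on all 3 EV arrays and on no irZTL array. Its limma adjusted p was 0.725, and on the log2 scale its groups overlapped. The share of all undetected probes with this flag pattern is not given here, so the pattern cannot be judged against it. The other ROC5_NICSY probe, NA63378_22648, had means in the other direction (4.13 ± 5.35 in irZTL and 0.710 ± 6.21 in EV). Its groups overlapped, and it was positive on 1 array of each genotype. The 4 higher were M240_ARATH, DEF32_ARATH, PER10_ARATH and ZAT7_ARATH. DEF32_ARATH had 0.238, 2.76 and 1.58 in irZTL and -4.17, -5.08 and -3.41 in EV, none of them flagged positive.

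**Figure D5:**
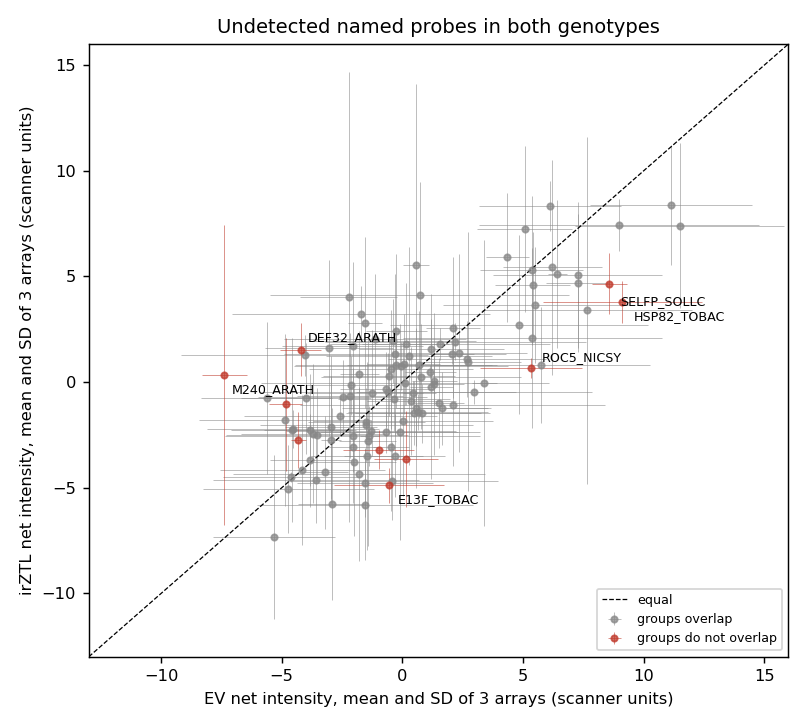
Mean net intensity in scanner units of each of the 117 probes in EV (horizontal axis) and irZTL (vertical axis), with SD bars over 3 arrays; the dashed line marks equal values and red the 10 probes whose groups did not overlap after scaling to the 75th percentile. SELFP_SOLLC (8.58 in EV, 4.66 in irZTL) and HSP82_TOBAC (9.12, 3.80) lie below the line, DEF32_ARATH (-4.22, 1.53) above it.

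Counted by array, 15, 24 and 22 members were positive and significant in irZTL and 28, 29 and 31 in EV. The irZTL counts were all below the EV counts. Over all undetected probes the shares were 23.9%, 25.2% and 25.8% in irZTL and 24.8%, 28.0% and 26.1% in EV, and these overlapped. Negative-control spots were positive in 6.49%, 4.87% and 5.19% in irZTL and 4.55%, 5.19% and 3.90% in EV. The median net intensity of the members did not follow the counts, at -0.560, 0.153 and -0.565 in irZTL and -0.317, -0.893 and -0.134 in EV. Since irZTL replicates 1 and 2 were on slide 1 and the other 4 arrays on slide 2, slide and genotype are partly confounded, and the part of slide in these counts was not tested.

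Over members, 14 were positive in irZTL arrays only, 22 in EV arrays only and 27 in both. The same split over all undetected probes is not given here, so these counts cannot be judged against it, and they were not tested. The 54 members positive nowhere had log2 differences between -0.07 and 0.07, which are differences between fill-in values and not of measured signal.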

How the data were processed

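RNA was labelled with Cy3 and hybridized to 6 one-colour Agilent arrays, per the labels' protocols. The deposited scanner files hold spot intensity on a linear scale, extracted with Agilent Feature Extraction (10.7.3.1 per the file headers, 9.5 per the submitters' processing notes), with detection flags. Per the design text, values in the authors' deposited table are log2 signals set to the 75th percentile; recomputed from the scanner files, 99.89% to 99.92% of probes per array came within 0.02 of them. Its columns had medians of -4.12 to -3.98 and no centring per probe, and its direction is that of a level.

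Control spots were left out and spots of a probe averaged. Outlier spots were left out of the intensities but not of the detection flags. The 5 probe values whose every spot was an outlier were kept. Members were probes with the flag at 0 on all arrays (spot mean under 0.5). In the processed intensity, spots that are not positive and significant carry a surrogate near the spot's own error, as 78.8% of member values did, so the text gives background-subtracted (net) intensity. Groups were compared with limma (3.58.1, R 4.3.3; log2 processed intensity minus the 75th percentile, two-sided, Benjamini-Hochberg over 59157 probes). The authors' filter on dim probes was not used, since it removes all 117 members. This fit was first tested on simulated data, with effects placed only in probes detected on all arrays, so that test does not cover the members.

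Members, lists and tests were chosen with earlier results of these data known. The naming rule took the 8 highest and 4 lowest members by level, the 3 probes detected on 1 array, members with a detected probe of the same protein, up to 4 per list, the 6 smallest p and clock members. It gave 45 members; the others were named after their values were seen, to account for all. Names are the probes' own; 0 identifiers matched the reference gene table. Same-numbered replicates deviated together from their group means (correlations 0.4436, 0.1594 and 0.4622 over 27196 probes). Differently numbered ones gave -0.399 to 0.0967, so the pairing is weak for replicate 2. Deviations from a group mean sum to 0, so these correlations are not independent. By the rule applied here the numbers pair the samples, though the labels name no shared origin. The main fit was unpaired, and the replicate block was run as an alternative. Background correction, normalization, detection rule, slide, replicate block, weights and each array left out were tried as alternatives.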

Additional observations from a re-analysis of the deposited data

How the results depend on the processing

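No member passed the adjusted threshold (0 of 117) in any of 20 settings of the limma fit or the methods' t-test, with 2 to 8 members at an unadjusted p under 0.05 and a lowest adjusted p of 0.0733 (SELFP_SOLLC, array quality weights). The replicate block also gave 0, with 5 at an unadjusted p under 0.05, and changed no call of a member. Over all probes the calls, 260, were 0 with the block, with slide as a fixed block and on slide 2 alone, 0 to 33 with 1 array left out, 511 with array quality weights and 3 with the methods' t-test. The number of undetected members was 54 in place of 117 by the positive-and-significant flag, and 99 to 122 by the other detection rules. The count without overlap, 4, was 13 under normexp (11.1% of members, 17.3% of all probes), 15 under quantile normalization (12.8%, 20.0%), 10 with net intensity (8.55%, 18.0%), 27 on slide 2 alone (23.1%, 41.0%) and 5 to 41 with 1 array left out (20.6% to 33.6% of all probes). The only member positive on all arrays, PRS6B_SOLTU, overlapped, so that restriction gives 0 and checks 1 probe. Slide 2 alone and each array left out have fewer arrays, and for the rest the cause was not tested. Without EV replicate 2, members with fill-in values alone could also enter the count. The median log2 level, -6.26, was -2.42 with normexp, whose offset of 50 raises dim values, and that of PRS6B_SOLTU alone was -4.80. Net intensity, the fit on undetected probes, members positive on all arrays, the generalised log and leaving out mitochondrial reading frames were chosen after seeing the data. Of 360 levels of named members under quantile normalization, the deposited table and each array left out, 0 moved by over 1 SD (normexp was not run for single members). Leaving out 1 of 6 arrays cannot move their mean by over 1 SD of the arrays, and the deposited values were nearly the same. For those settings the outcome was therefore fixed in advance and says nothing about stability. Of 108 adjusted p values of named members 0 were under 0.05, with 2 differences turned in direction. Signal over background limits every member value, and the size of difference that could be found among members was not measured.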
